A study of Mus musculus with 4 samples.

Results

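The genes of the respiratory chain and of the mitochondrial ATP synthase were examined in fetal mouse lung with reduced Fgf8. Members were all non-control probes whose gene name on the array begins like those of the nuclear subunits of complexes I to V (the Nduf, Sdh, Uqcr, Cox4 to Cox8 and Atp5 families), without the muscle-type isoforms Cox6a2, Cox7a1 and Cox8b. This gave 113 probes of 80 genes among 41174 probes. Of them, 89 probes of 67 genes were bright enough and free enough of outlier marks to be tested, and the other 24 are described apart. The lungs came from embryos at E18.5, on a mixed background that the labels write as c57nl7/sv129. Hypomorphs were Fgf8H/-, with a reduced-function allele over a null allele by the usual meaning of these symbols, and the controls were Fgf8+/+ littermates. The lobes were cut free from the large airways and vessels, and every sample pooled lungs of 3 embryos of like genotype. Each of 4 dual-colour arrays paired 1 hypomorph pool in Cy5 with 1 wild type pool in Cy3, so n = 4 pools per genotype, numbered here as the replicates in the labels. The dyes were not exchanged on any array, so on each array a dye effect of a probe adds to its genotype effect in 1 direction. Pools of whole lobes mix many cell types, so more cells of a type and more RNA per cell cannot be told apart.

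The respiratory chain passes electrons from NADH (complex I) and succinate (complex II) through complex III to oxygen at complex IV, and pumps protons across the inner mitochondrial membrane. ATP synthase, complex V, uses the returning protons to make ATP. Most subunits are encoded in the nucleus, and the nuclear respiratory factors, NRF1 and the ETS factor GABP, are known regulators of many of these genes. Complex I has core subunits that carry its flavin and iron-sulphur centres and many smaller accessory subunits.

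As a description of the regulatory sequence next to these genes, the promoter windows in RefSeq (build GRCm38.p6) were searched over the 250 bases before each annotated start. The letters CGCNTGCG, an NRF1-type motif, were read on both strands (CGCANGCG on the other), and so was the ETS-type motif CCGGAAG. The NRF1-type letters were found in 19 of 70 windows of 65 member genes (27.1%), against 6.76% of all 32851 windows of the same length. The ETS-type letters were found in 13 member windows (18.6%), against 6.91% of all windows. A match describes letters and not a bound site. The windows of 3 members with NRF1-type matches are printed 5′ to 3′ in the sense of the gene, with the matches in capitals. Sdha and Atp5g2 each had a probe that was higher in the hypomorph, and Ndufb4 had the lowest mean ratio of the members tested. Those of Sdha (minus strand, chr13:74350241-74350490) and Ndufb4 (minus strand, chr16:37654369-37654618) held 3 matches each, and that of Atp5g2 (minus strand, chr15:102671048-102671297) held 1.
Sdha: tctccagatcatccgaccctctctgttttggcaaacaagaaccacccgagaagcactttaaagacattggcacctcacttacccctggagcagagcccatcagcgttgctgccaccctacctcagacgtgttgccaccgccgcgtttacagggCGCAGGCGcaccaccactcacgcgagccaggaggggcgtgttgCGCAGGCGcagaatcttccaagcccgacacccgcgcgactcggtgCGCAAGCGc
Atp5g2: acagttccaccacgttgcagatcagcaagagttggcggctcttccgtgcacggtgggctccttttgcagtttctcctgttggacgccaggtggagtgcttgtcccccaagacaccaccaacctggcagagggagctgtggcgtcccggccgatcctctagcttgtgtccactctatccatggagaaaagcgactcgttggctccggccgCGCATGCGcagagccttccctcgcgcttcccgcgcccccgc
Ndufb4: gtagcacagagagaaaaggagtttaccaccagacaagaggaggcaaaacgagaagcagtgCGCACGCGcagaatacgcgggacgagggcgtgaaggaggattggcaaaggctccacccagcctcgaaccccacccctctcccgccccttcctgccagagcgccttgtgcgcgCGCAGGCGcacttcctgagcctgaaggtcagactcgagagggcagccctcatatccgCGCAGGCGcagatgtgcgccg

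Across the arrays, between 32491 and 33744 of 43379 spots were well above background in the wild type channel, and between 32731 and 34519 in the hypomorph channel. Fgf8 itself, the gene that was altered, had log2 ratios of -0.31, -0.23, -0.09 and -0.09 on the 4 arrays by its 1 probe above background (mean -0.18 ± 0.11, limma, adjusted p = 0.0572). The sources used here do not place that probe relative to the altered sequence, so it does not check the genotype. All ratios are on the log2 scale with hypomorph in the numerator, given as mean ± SD (n = 4 arrays where no n is stated), and a probe was called at an adjusted p under 0.05 over all probes tested (limma, Benjamini-Hochberg).

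Most members did not differ between genotypes beyond the spread of the arrays, and those that did were higher by at most 1.36-fold, with 1 exception. Of the 89 probes tested, 14 probes of 12 genes were higher in the hypomorph (15.7%), beside 12.7% of all 30008 probes tested. Only Cox6b2 was lower (1.12%), beside 12.2% of all probes. The share of higher members thus lay near that of all probes, whereas lower members were fewer than among all probes. The median log2 ratio of the members was 0.03, beside -0.00 for all probes, and single probes reached from -0.40 (Ndufb4) to 0.45 (Ndufb11). The counts rest strongly on replicates 2, 3 and 4. Without replicate 2, 2 members were higher and 0 lower at a background of 2.69% and 2.55%, without replicate 3 there were 4 and 0 (3.72% and 3.99% of all probes), and without replicate 4 there were 9 and 2 (7.96% and 7.87%). The share called among all probes fell with that of the members, of whom 2.17%, 4.35% and 9.57% were then higher. Without replicate 1 there were still 14 higher and 1 lower, beside 12.9% and 13.2% of all probes.

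**Figure D1:**
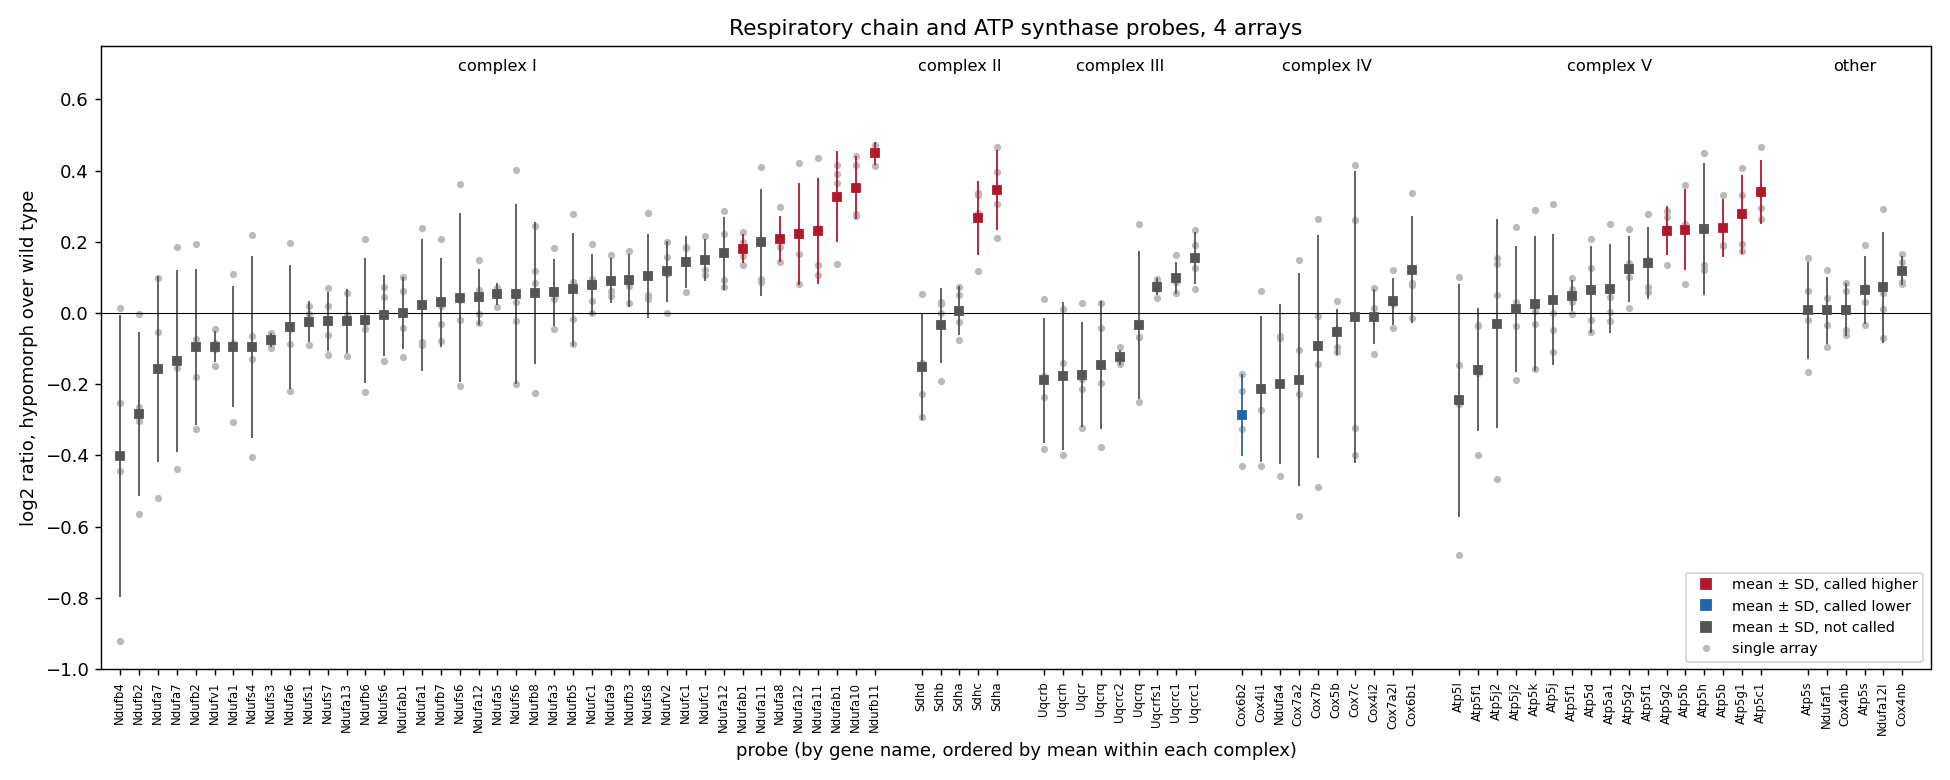
Log2 ratio of hypomorph over wild type (vertical axis) of 88 of the 89 member probes tested, grouped by complex and ordered by mean; squares are means, bars SD over the arrays, grey points single arrays. Called probes (red, 14 higher; blue, 1 lower) lie in complexes I, II, IV and V, and no probe of complex III was called.

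Members are bright probes, and the ratio moves with brightness on these arrays, so each was read beside all probes tested in the same range of brightness (1 unit of mean log2 signal of both channels). The median brightness of the members was 14.3, against 9.81 for all probes. Over the members, the median of the same-brightness values was -0.01, and the median of the members' differences from them was 0.06, with 63 of 89 members above. Between a brightness of 12 and 16, where 69 members lie, 10 members were higher (14.5%) and 0 lower, beside 13.5% and 18.6% of 7067 probes. The median SD over the arrays was 0.11 for these members and 0.08 for all probes of that range. A wider spread makes a call less likely, and how far it lowered the counts of members was not tested. Above 16, the median of all 166 probes was 0.26 and 50.6% of them were higher. Of the 3 members there, Ndufb11 and Atp5c1 were higher, and Uqcrh had a ratio of -0.18 ± 0.21 (n = 3).

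**Figure D2:**
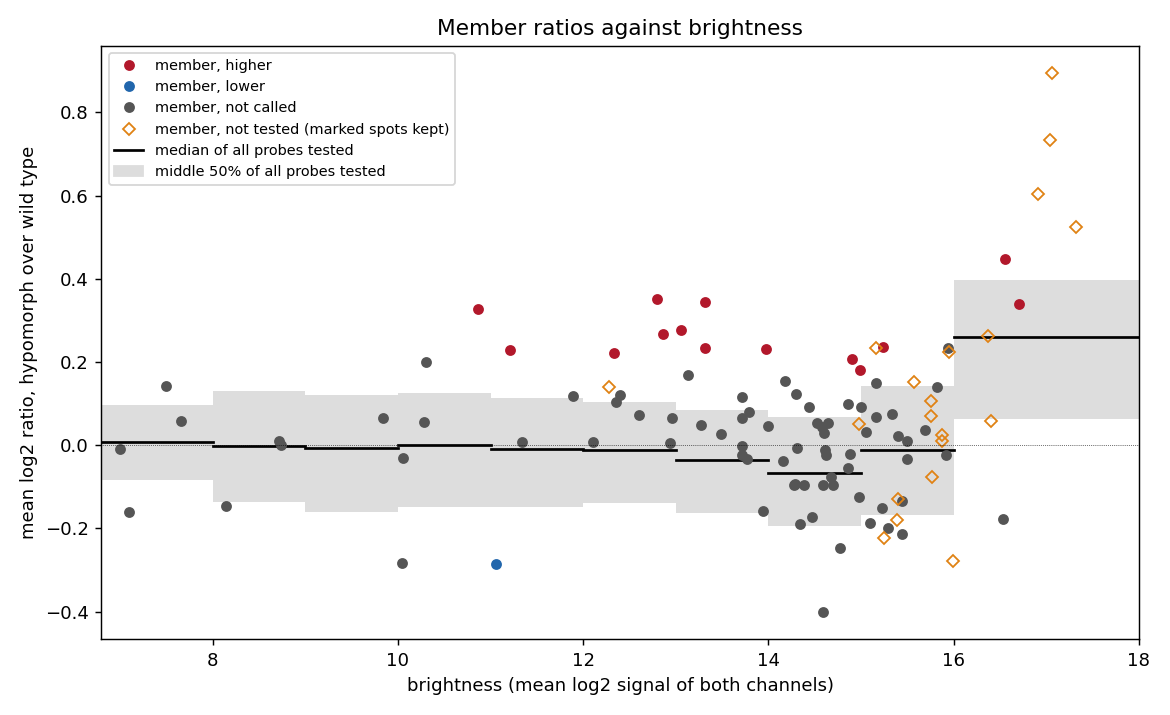
Mean log2 ratio (vertical axis) of members against brightness, the mean log2 signal of both channels (horizontal axis). Black lines and grey bands are the median and middle 50% of all probes tested in each range; the band rises above 16, where the median is 0.26. Filled points are tested members, and open diamonds are members not tested, shown with their marked spots kept.

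In complex I, 7 of 42 probes tested were higher (16.7%) and 0 lower, beside 12.7% and 12.2% of all probes. The median was 0.05. Among core subunits 0 of 7 probes were called, with a median of -0.02. Ndufs1, which carries iron-sulphur clusters of the electron input arm, had ratios of -0.00, -0.09 and 0.02 on the 3 arrays that measured it. Ndufv1, which binds NADH, had a mean of -0.10 ± 0.04. Neither was called at an adjusted p under 0.05 (limma, 0.761 and 0.137). Among accessory subunits, 7 of 35 probes, those of 6 genes, were higher (20%), and the median was 0.05. The difference between core and accessory subunits was not tested.

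Ndufa10, an accessory subunit related to nucleoside kinases, had the smallest p of the complex I members with values on all 4 arrays. Its loess-normalised signals were 6101, 5768, 6831 and 6452 in the wild type pools and 8144, 7824, 8255 and 7827 in the hypomorph pools. The hypomorph pool had the higher signal on each array. Signals of single genes given here and below were not normalised between arrays, so such signals are compared within each array only. The log2 ratios were 0.42, 0.44, 0.27 and 0.28, a mean of 0.35 ± 0.09 or 1.28-fold (limma, adjusted p = 0.00714), against a same-brightness median of -0.01. It was still called with 20 of 21 alternative settings, and not without replicate 2 (adjusted p = 0.0513). Its probe maps to chromosome 1, 94294868 to 94297825 in mouse build mm8.

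Ndufb11, an X-linked accessory subunit, had the highest ratio of the members tested, at 0.47, 0.46 and 0.41 on 3 arrays (mean 0.45 ± 0.03, n = 3, adjusted p = 0.00609). Its brightness was 16.6, and the median of all probes above 16 was 0.26. With the scanner software's processed signals its ratio was 0.22 and not called (adjusted p = 0.0702), nor was it when arrays were centred within brightness ranges. Ndufab1, the mitochondrial acyl carrier protein, was read by 3 probes that disagreed. They gave 0.33 ± 0.13, 0.18 ± 0.04 and -0.00 ± 0.10, the last by a dim probe (brightness 8.7) without a RefSeq match. The first and the second were called. Both calls were lost without replicate 2 (adjusted p = 0.0791 and 0.118) and replicate 4 (0.0504 and 0.0831). The second was also lost without replicate 3 (0.0862) and with the processed signals (0.0629). Smaller rises were found for Ndufa11 (0.23 ± 0.15, 1 of 2 probes called), Ndufa12 (0.22 ± 0.14, 1 of 3 probes called) and Ndufa8 (0.21 ± 0.06), all accessory subunits. These 3 calls were lost with the processed signals, at adjusted p between 0.0662 and 0.0945, and without replicate 2 (0.11 to 0.153) or replicate 3 (0.0914 to 0.116), and the first and second also without replicate 4 (0.116 and 0.0584). Ndufa12 lost its call without replicate 1 too (0.0623). At the other end, Ndufb4 had ratios of -0.92, 0.01, -0.44 and -0.25, and Ndufb2 had -0.28 ± 0.23 and -0.10 ± 0.22 by its 2 probes. Neither was called (Ndufb4, adjusted p = 0.0835).

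Complex II, succinate dehydrogenase, is the one complex of the chain that also belongs to the citric acid cycle, and all its subunits are nuclear. Of its 5 probes, 2 were higher, 0 lower and 3 not called, where 12.7% of all probes were higher and 12.2% lower. The median was 0.01. Sdhc, which anchors the enzyme in the membrane and binds haem, had signals of 6643, 6192, 7076 and 7380 in the wild type pools and 8074, 7818, 8907 and 8004 in the hypomorph pools. The hypomorph pool was higher on each array. The ratios were 0.28, 0.34, 0.33 and 0.12 (mean 0.27 ± 0.10, 1.20-fold, adjusted p = 0.0179). Sdha, the flavoprotein that oxidises succinate, was higher by 1 probe, with ratios of 0.47, 0.31, 0.40 and 0.21 (mean 0.35 ± 0.11, adjusted p = 0.00958). The other Sdha probe read 0.07, -0.02, 0.05 and -0.07, a mean of 0.01 at a similar brightness. The probes lie at 74794310 to 74794369 and 74788700 to 74788759 of chromosome 13 in build mm8, so the Sdha call holds for 1 stretch of the transcript only. The iron-sulphur subunit Sdhb (-0.03 ± 0.11) and the second anchor Sdhd (-0.15 ± 0.15) were not called. Sdhc and Sdha lost their calls without replicate 2 (adjusted p = 0.0944 and 0.0566) and without replicate 3 (0.0814 and 0.0534).

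Complex III, the cytochrome bc1 complex, had no called probe among 9 tested, and its median was -0.12, beside a same-brightness median of -0.07. Its larger subunits gave a close spread between arrays. Uqcrc1, a core protein, was measured at 0.15 ± 0.07 and 0.10 ± 0.04 by 2 probes, and the other core protein, Uqcrc2, at -0.12 ± 0.02. Uqcrfs1, the Rieske iron-sulphur protein that hands electrons on, was at 0.07 ± 0.02. The smallest adjusted p among these 4 probes was 0.0565 (limma), that of the Uqcrc1 probe at 0.15. This probe was called higher under 7 alternative settings (adjusted p from 0.000205 to 0.042), among them array weights and a loess span of 0.1, so the absence of calls in complex III depends on the processing. The small subunits Uqcrb (-0.19 ± 0.18), Uqcr (-0.17 ± 0.15) and Uqcrq (-0.03 ± 0.21 and -0.15 ± 0.18) varied more between arrays.

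Complex IV, cytochrome c oxidase, has subunits that exist as general and as tissue-type isoforms. Of 10 probes tested, 0 were higher and 1 was lower (10%), beside 12.7% and 12.2% of all probes. The median was -0.07. The lower gene was Cox6b2, an isoform best known from testis. Its ratios were -0.43, -0.17, -0.33 and -0.22, below 0 on 4 of 4 arrays (mean -0.29 ± 0.12, 1.22-fold lower, adjusted p = 0.0171). Its signals were 2513, 2481, 2648 and 1841 in the wild type and 1865, 2202, 2114 and 1582 in the hypomorph, so each pair went the same way. With each array centred on its median in place of loess, its ratio was -0.08 and no longer called (adjusted p = 0.321). The call was also lost without replicate 2 (0.0568) and without replicate 3 (0.0762). Its general counterpart Cox6b1 was at 0.12 ± 0.15 and not called. Among the other isoform pairs, neither Cox4i1 (-0.21 ± 0.20) nor the dim Cox4i2 (-0.01 ± 0.08) was called, and neither Cox7a2 (-0.19 ± 0.30) nor Cox7a2l (0.03 ± 0.07). The call of Cox4i1 turned with the normalization, to lower at a loess span of 0.1 (-0.28, adjusted p = 0.0349) or from the processed signals (-0.36, 0.0369), and to higher with median centring (0.38, 0.0026). Cox7a2l is known today as a factor of supercomplex assembly. Cox5b (-0.05 ± 0.06), Cox7b (-0.09 ± 0.31) and Ndufa4 (-0.20 ± 0.22, n = 3), once counted to complex I, were not called either. Cox7c had the widest spread of the members tested, with ratios of -0.40, 0.26, -0.32 and 0.41.

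The 3 muscle-type isoforms that are no members behaved otherwise, and all 3 were lower. Cox8b, found in heart and skeletal muscle, had ratios of -0.82, -0.66, -1.49 and -1.30 (mean -1.06 ± 0.39, 2.09-fold lower, adjusted p = 0.00609). Cox6a2 had -0.55, -0.40, -1.41 and -1.26 (mean -0.91 ± 0.51, adjusted p = 0.018), and Cox7a1 had -0.65, -0.02, -0.80 and -0.70 (mean -0.54 ± 0.35, adjusted p = 0.0291). All 3 were lowest on arrays 3 and 4. Cox8b was called under all 21 alternatives run at probe level, Cox6a2 not without replicate 3 (adjusted p = 0.0594) or 4 (0.0591), and Cox7a1 likewise (0.102 and 0.0895). Of the markers of cardiac and skeletal muscle, 0 of 25 probes were higher, 8 lower and 17 not called, beside 12.7% and 12.2% of all probes. Their array medians were -0.02, -0.03, -0.38 and -0.37. They were thus low on arrays 3 and 4 like the isoforms, but near 0 on arrays 1 and 2, where the isoform medians were -0.65 and -0.40. The marker signal summed over 23 probes ranged from 90755 to 156250 in the wild type pools and from 88401 to 118420 in the hypomorph pools. These sums were not normalised between arrays. Their ranges thus mix the brightness of whole arrays with muscle RNA, and do not measure how pools differ in muscle content. The smallest p among these markers were those of Ryr2, a calcium release channel, and Pln, a regulator of the calcium pump (-0.53 ± 0.15 and -0.75 ± 0.29). These probes of Ryr2 and Pln were called under all 21 alternatives run at probe level. Another Ryr2 probe was also lower and kept its call under 18 of 21. It lost the call without replicate 2, 3 or 4 (limma, adjusted p = 0.0787, 0.109 and 0.0837). The markers Tnni3 and Myh6 were also lower (-0.75 ± 0.40 and -0.52 ± 0.31), with other probes of theirs at -0.54 ± 0.42 and -0.13 ± 0.36. Without replicate 3 these 2 calls were lost (0.0686 and 0.0679), and that of Myh6 also without replicate 2 (0.0655) or 4 (0.078). The part of muscle RNA in the isoform ratios was not tested. The brown fat markers Ucp1, Elovl3 and Adipoq were not well above background on any array, and 0 of the 4 brown fat probes tested were called. Of the erythroid markers, 0 of 11 probes were higher and 1 was lower, that of Alas2, an enzyme of haem synthesis (-0.22 ± 0.07). Its call was lost without replicate 2, 3 or 4 (adjusted p from 0.0605 to 0.0824), and median centring turned it to 0.25 (0.0158). Of the lung epithelium markers, 3 of 14 probes tested were higher and 2 lower, beside 12.7% and 12.2% of all probes. The list held 19 probes, each well above background on at least 1 array, and not all of them could be tested. Aqp5, a water channel, was lower (-0.66 ± 0.06), at -0.13 and not called with median centring (0.16). Cbr2 was higher (0.45 ± 0.07) at a brightness of 17.3, and at 0.07 and not called with the processed signals (0.406). Cdh1, E-cadherin, was higher (0.23 ± 0.09), though not with the processed signals (0.113) or without replicate 2, 3 or 4 (0.0602 to 0.101).

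**Figure D3:**
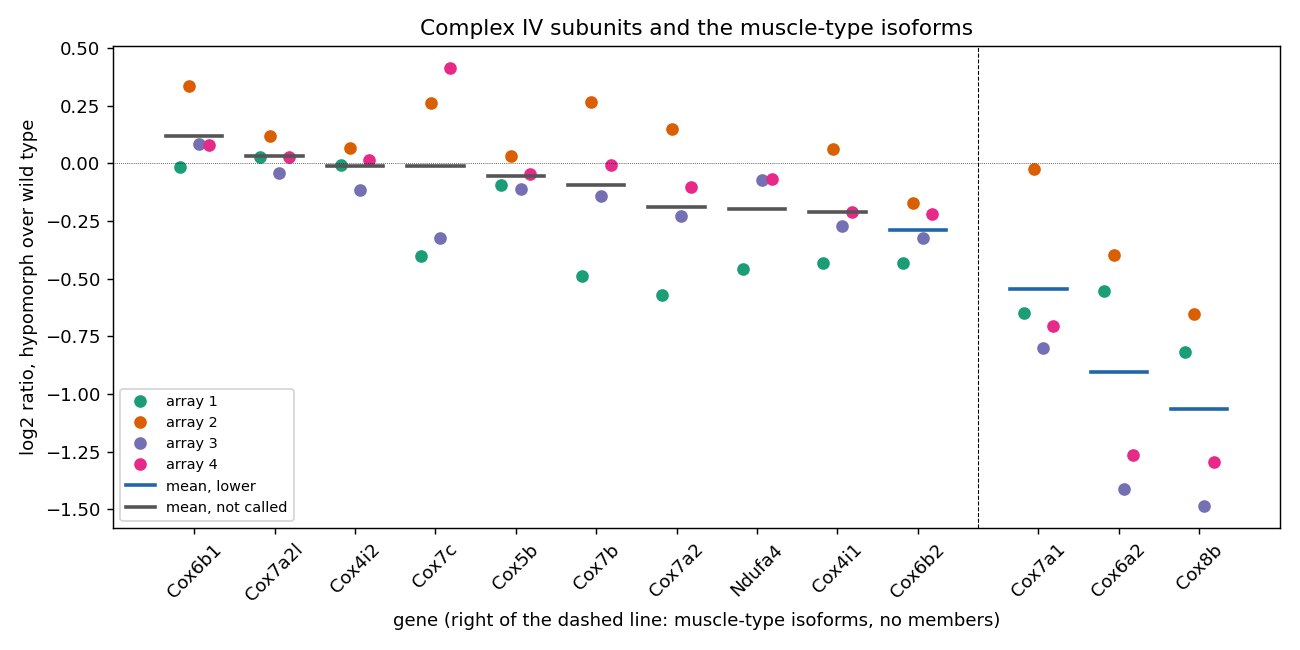
Log2 ratio of hypomorph over wild type (vertical axis) on each array (coloured points) for the 10 complex IV probes tested and, right of the dashed line, the 3 muscle-type isoforms; bars are means, blue where called lower. Members are spread around 0 with array 1 mostly lowest, while the muscle-type isoforms lie lower and are lowest on arrays 3 and 4.

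In complex V, 5 of 17 probes tested, those of 4 genes, were higher (29.4%) and 0 lower, beside 12.7% and 12.2% of all probes. The median was 0.07, beside a same-brightness median of -0.01. The higher genes were Atp5b and Atp5c1, of 4 genes tested that encode the catalytic head and its central shaft, and Atp5g1 and Atp5g2, which encode the ring in the membrane. Atp5b, the catalytic beta subunit, was higher by both probes tested, with ratios of 0.33, 0.19 and 0.19 on 3 arrays by 1 and of 0.36, 0.24, 0.25 and 0.08 by the other. The means were 0.24 ± 0.08 (n = 3, adjusted p = 0.0383) and 0.23 ± 0.11 (adjusted p = 0.0296). The first call was lost without replicate 1, 2 or 3 (adjusted p from 0.0644 to 0.132) and with the processed signals (0.132). It was kept under 9 of 20 alternatives run at probe level. That probe had no value on array 4, so its move to 0.0518 without this array does not rest on its own values. The second call was lost without replicate 2 (0.119) or replicate 3 (0.107). Atp5b was the only gene with several probes tested of which all were higher, among 17 such genes. Atp5c1, the central gamma subunit that rotates in the head, had 0.26, 0.47, 0.34 and 0.30 (mean 0.34 ± 0.09, adjusted p = 0.00771). Its brightness was 16.7, and the median of all probes above 16 was 0.26. The processed signals put it at 0.04 (adjusted p = 0.517). The call was also lost with a loess span of 0.1 and with centring within brightness ranges. Atp5a1, the alpha subunit, and Atp5d, the delta subunit of the shaft, were both at 0.07 ± 0.12 and not called (adjusted p = 0.409 and 0.423).

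The membrane ring is made of a single protein encoded by 3 genes. Atp5g1 had signals of 7410, 6815, 8673 and 8136 in the wild type pools and 9317, 9042, 9916 and 9187 in the hypomorph pools. Its ratios were 0.33, 0.41, 0.19 and 0.18 (mean 0.28 ± 0.11, 1.21-fold, adjusted p = 0.018). Atp5g2 was higher by 1 probe (0.23 ± 0.07, adjusted p = 0.0176), while the other read 0.12 ± 0.09 and was not called. Atp5g1 and Atp5g2 lost their calls without replicate 2 (adjusted p = 0.088 and 0.0943) and without replicate 3 (0.0567 and 0.0779), and were called with the processed signals (0.0303 and 0.0275). Subunits of the outer stalk were not called in 5 probes, with Atp5h highest at 0.24 ± 0.19 (n = 3). Atp5l, a small membrane subunit, was lowest at -0.25 ± 0.33. Many of these genes have processed pseudogenes, and whether probes also bind their transcripts was not tested.

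The 6 probes of the 4 genes that share the name patterns without encoding subunits gave no call. They were the assembly factor genes Ndufaf1 and Ndufa12l, Cox4nb and Atp5s, with means between 0.01 and 0.12.

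Beyond their means, the members shared a pattern over the arrays. The median ratio was -0.03, 0.18, 0.01 and 0.02 on arrays 1 to 4, while that of all probes stayed between -0.01 and 0.00. Of the 74 members with values on all arrays, 52 were highest on array 2 (70.3%), beside 20.2% of all probes and 22.3% of those with a brightness of 12 to 16. Array 1 was lowest for 42 (56.8%), beside 35.5%. In complex IV the array medians reached from -0.41 on array 1 to 0.12 on array 2, in complex III from -0.25 to 0.06, and among accessory subunits of complex I from -0.08 to 0.20. The core subunits of complex I stayed between -0.06 and 0.01. Of the 21 probes that stood over 0.4 higher on array 2 than on array 1, Ndufb4 (0.94), Atp5l (0.78), Cox7b (0.75), Cox7a2 (0.72) and Cox7c (0.66) had the largest gaps. The 21 lay in complexes I (10, all accessory), V (5), IV (4) and III (2), and 0 in complex II.

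Pool levels were read after a normalisation between arrays (Aquantile), which gives all arrays the same distribution of brightness. Read per pool, both genotypes took part. Relative to each probe's mean over the arrays, the median wild type level of the members was 0.11, 0.04, -0.05 and -0.10 on arrays 1 to 4, and the median hypomorph level was -0.00, 0.17, -0.07 and -0.08. The hypomorph pool of array 2 was the highest and the wild type pool of array 1 was raised without its hypomorph partner. For all probes of brightness 12 to 16 these levels stayed between -0.03 and 0.02. Array 2 was also highest for 34 of 65 probes of cytosolic ribosomal protein genes (52.3%) and 60 of 100 of mitochondrial ribosomal protein genes (60.0%), so the pattern was not particular to the respiratory chain. Its source was not tested, and labels give no further difference between these pools.

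**Figure D4:**
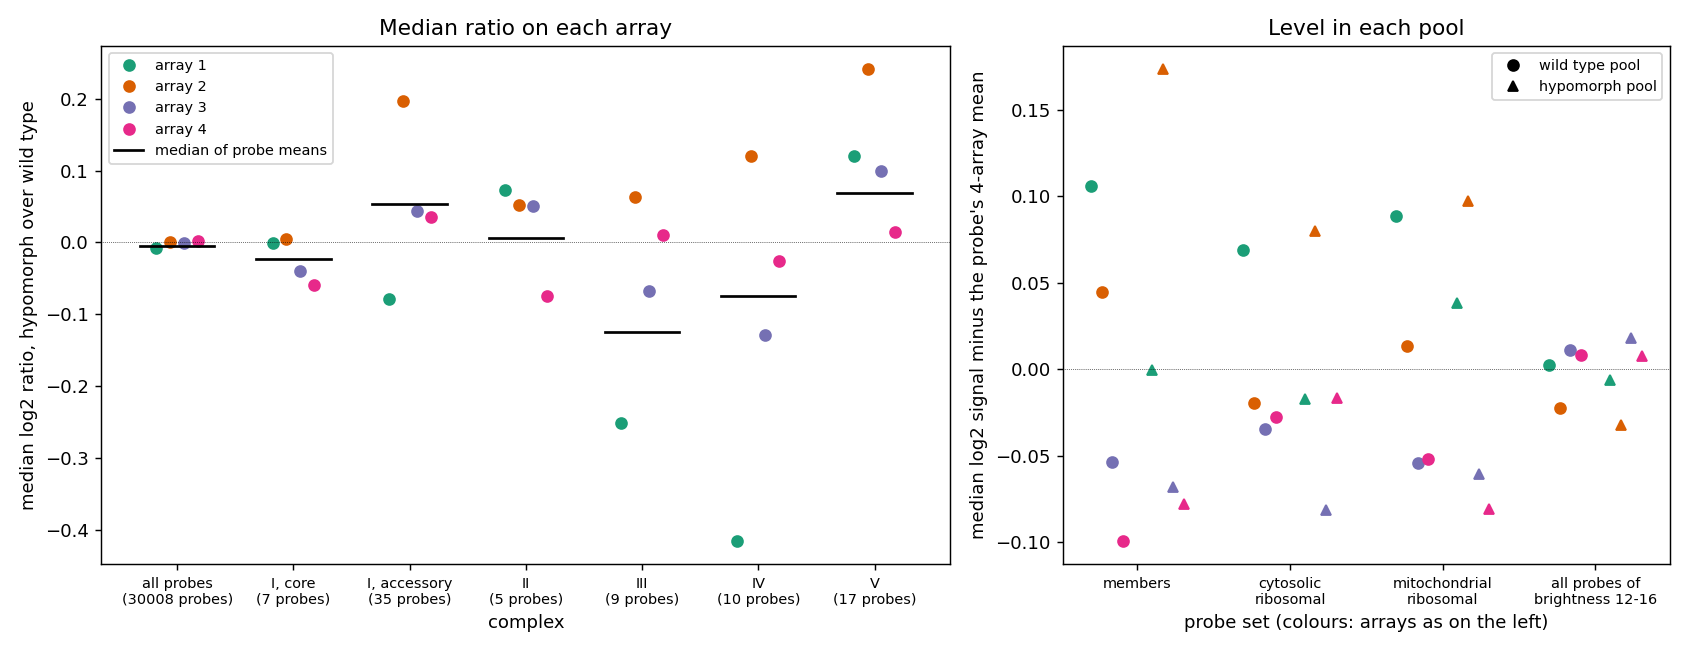
Left, median log2 ratio of hypomorph over wild type (vertical axis) on each array for all probes and for the members by complex, with black bars for the median of probe means; array 2 is highest in complexes I (accessory), III, IV and V. Right, median log2 signal in each pool minus the probe's mean over the 4 arrays, after Aquantile normalisation between arrays, over probes with values on all arrays (74 members). The hypomorph pool of array 2 stands at 0.17 for the members.

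Of the 24 members not tested, 20 were well above background but carried outlier marks, set by the scanner software on the local background, on 2 or more arrays. Such marks touched 35 of 113 members (31.0%) and 12.7% of all probes, and among probes of brightness 15 and over 69.2% of members and 66.9% of all. No member spot was saturated. With marked spots kept, the brightest members had high ratios. A further Atp5b probe was at 0.89 ± 0.07, a further Atp5a1 probe at 0.73 ± 0.10, Atp5g3 at 0.60 ± 0.13 and Cox6a1 at 0.53 ± 0.09, all at a brightness of 16.9 or more. With marked spots kept, the median of all probes of brightness 16 and over was 0.34. The brightest of these probes were not taken apart, so whether the members exceed probes as bright as they are was not tested. The Atp5a1 probe that could be tested read 0.07 and those of Atp5b 0.24 and 0.23, so at this brightness probes of a gene disagreed. With lower ratios, Atp5o (0.26 ± 0.19), Atp5h (0.23 ± 0.11) and Ndufa8 (0.23 ± 0.15) also had adjusted p under 0.05 then (0.0312 to 0.0474). In that fit 21 of 109 members were higher (19.3%) and 1 lower, beside 13.9% and 12.9% of all probes. Some of the other marked members lay nearer 0, among them Cox5a (0.01 ± 0.08), Cox8a (0.02 ± 0.04) and Cox6c (0.06 ± 0.32). Atp5e, the small epsilon subunit, varied most, with -0.93, 0.32, -0.37 and -0.13. The other 4 probes not tested, those of Cox8c and 1 each of Ndufab1, Ndufs1 and Ndufs4, were not well above background on enough arrays.

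Over 5 lists of genes that serve the chain without belonging to it, 22 of 161 probes were higher (13.7%) and 20 lower (12.4%), near the shares of all probes (12.7% and 12.2%). Of regulators of mitochondrial biogenesis, 4 of 37 probes were higher and 7 lower, with a median of -0.01. Nrf1, the factor named above, was higher by 1 probe (0.27 ± 0.08, adjusted p = 0.013) and at 0.11 ± 0.07 by another. The nuclear receptor Esrra was lower (-0.24 ± 0.06) by 1 probe, at -0.00 with median centring, and at -0.04 ± 0.27 by another. Ppargc1a, a coactivator that drives biogenesis, was lower by 1 probe, with -0.19, -0.32, -0.49 and -0.64 (mean -0.41 ± 0.20, adjusted p = 0.0166), and at -0.17 ± 0.10 by another. Without replicate 2, and again without replicate 3, the calls of Nrf1, Esrra and Ppargc1a were lost, at adjusted p between 0.0671 and 0.0781. Of assembly factors, 8 of 53 probes were higher and 3 lower (median 0.03). Oxa1l, which inserts proteins into the inner membrane, was higher by all 3 probes (0.40, 0.31 and 0.17), of which that at 0.31 was called under all 21 alternatives run at probe level. The probe at 0.40 lost its call without replicate 2 (adjusted p = 0.0684), and that at 0.17 kept it under 10 of the 21, losing it without any 1 of the arrays (0.0752 to 0.156) and with the processed signals (0.0956). Timmdc1, a complex I assembly factor that the array lists under an older name, was higher (0.34 ± 0.15), though not without replicate 2 (0.0798) or 4 (0.0535). The copper chaperone Cox17 was higher by a probe of brightness 17.3 (0.37 ± 0.14) and at -0.14 ± 0.16 by another, and the processed signals turned the first to -0.08 (adjusted p = 0.51). That call was also lost without replicate 3 (0.056).

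Of genes for electron carriers and coenzyme Q synthesis, 4 of 26 probes were higher and 1 lower (median 0.00). Coq4, needed to make coenzyme Q, was higher by both probes (0.31 ± 0.13 and 0.28 ± 0.06), and Pdss1 and Coq7 each by 1 of 2 (0.30 ± 0.10 and 0.25 ± 0.10). Without replicate 2 these 4 calls were lost (adjusted p from 0.0638 to 0.0994), and without replicate 3 all but the Coq4 probe at 0.28 were lost (0.0642 to 0.0791). In the citric acid cycle and pyruvate dehydrogenase list, 4 of 35 probes were higher and 6 lower (median -0.00). Pdk4, the kinase that switches pyruvate dehydrogenase off, was lower at -0.66, -0.83, -0.89 and -0.82 (mean -0.80 ± 0.10, adjusted p = 0.00117). Pcx, pyruvate carboxylase, was lower (-0.55 ± 0.01) and Idh2, a mitochondrial isocitrate dehydrogenase, was higher (0.33 ± 0.09). Pdk4 and Pcx were called under all 21 alternatives run at probe level, and Idh2 not without replicate 2 (adjusted p = 0.0543). Of inner membrane carriers and porins, 2 of 10 probes were higher and 3 lower (median 0.07). Vdac3, a porin, was higher (0.46 ± 0.05, n = 3), though not without replicate 2 (adjusted p = 0.0544).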

How the data were processed

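Total RNA of 4 hypomorph and 4 wild type lung pools, 3 lungs each, was compared on 4 dual-colour arrays, per the labels. The scanner software was Agilent Feature Extraction 9.5.1 in the submitters' processing notes. Deposited mean and background intensities are raw scanner values, and the processed intensities are background-subtracted and dye-normalised, per the file headers. The deposited series table holds log2 values that equal log2 of processed red over green (correlation 1), with no centring. Here the mean intensities were corrected by normexp (offset 50) and normalised within arrays by loess (span 0.3, controls at weight 0) in limma 3.58.1 (R 4.3.3). Spots with outlier marks were left out and spots of a probe averaged. Probes that 3 or more arrays showed well above background in either channel, and that had 3 or more values, were tested by lmFit and eBayes of the mean log2 ratio against 0, with Benjamini-Hochberg adjustment over 30008 probes. The steps were tested on simulated data. The number of arrays limits the precision.

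Members, lists and tests were chosen with earlier results of these data known. Named were, per complex, the called genes with the 3 highest and 3 lowest means of equal sign on every array, core subunits, isoform pairs, genes whose probes differ by over 0.3, and up to 3 genes per other list by smallest p (in the marker lists only called ones are given); other named members were chosen after their values were seen. One gene that this rule names is not reported here and not drawn by name. Gene names are those of the array, of which 78 of 80 matched RefSeq through a probe, and probe positions are in build mm8. Single probes of a matched gene can lack a match. Alternatives covered signal, background, normalization, filters, marks, probes per gene, variance and single arrays.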

Additional observations from a re-analysis of the deposited data

Results flagged for a closer look

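Single arrays stood apart within 3 of the 74 members with values on all 4 arrays and within 1 of 6 medians, by a gap that is large for the range of 4 values (Dixon's criterion). Chance alone gives about 1 in 20 such cases. Sdhb had a log2 ratio of -0.191 on array 4, with the nearest other array at 0.00064. Ndufs8, a core subunit of complex I with iron-sulphur clusters, had 0.281 on array 2, the next being 0.0501. A probe of Atp5j2, a small membrane subunit of ATP synthase, had -0.466 on array 1, the next being 0.0506, while the other Atp5j2 probe was at -0.19 there. The median of complex II was -0.0748 on array 4, against values between 0.05 and 0.07 on the other arrays.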

How the results depend on the processing

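The median difference of the members from probes of the same brightness kept its sign under every alternative, between 0.02 (without replicate 2) and 0.08 (median centring), beside 0.06. The counts of calls moved. With the processed signals, and equally with the deposited series table, which repeats them, 7 members were higher and 3 lower (7.87% and 3.37%), beside 9.89% and 8.55% of all probes. With median centring in place of loess 78 were higher, at 36.6% of all probes. The members' median was then 0.43 and that of all probes 0.10, and the medians were 0.44, 0.41, 0.56, 0.37 and 0.56 for complexes I to V. Members called lower were 3 with a loess span of 0.1, scaling between arrays or array weights, 2 with centring within brightness ranges or an intensity trend and robust variance, and 4 with separate channels, beside 11.8% to 16.2% of all probes. Members called higher under these settings were 14 to 20, beside 12.3% to 16.1% of all probes, and 21 of 109 with marked spots kept, beside 13.9%. Leaving out 1 array gave 2 to 14 members higher and 0 to 2 lower. The median of complex II was 0.12 with the brightest probe per gene. Ratios at or below 0 after loess that were called above 0 with median centring included those of Cox4i1 (0.38), Cox5b (0.45), Cox7a2 (0.35), Cox7b (0.33), Ndufa4 (0.39), Ndufs1 (0.33), Ndufv1 (0.32), Sdhb (0.32) and Sdhd (0.41). Further members turned in this way, since only 53 of the 89 tested were above 0 after loess. Loess, unlike median centring, is fitted to the trend of ratio with brightness, and above a brightness of 16 the median of all probes was still 0.26 after it. The cause of the other moves was not tested. Aquantile changes no ratio by construction. The test is itself paired, since each array holds 1 pool of each genotype and the ratios within arrays were tested against 0.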

Other observations

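Of the mitochondrial genome's own transcripts, cytochrome b of complex III was read by 1 probe, with ratios of -1.14, 0.12 and -0.17 on arrays 1 to 3 (not called, limma, adjusted p = 0.27). Slc25a3, the carrier that brings phosphate to ATP synthase, was lower by 2 dim probes (-0.84 ± 0.10 and -0.68 ± 0.34, adjusted p = 0.00117 and 0.0141), while a brighter probe read 0.07 ± 0.08. Slc25a31, a nucleotide carrier best known from germ cells, was lower (-0.23 ± 0.09). The dimmer Slc25a3 probe and Slc25a31 lost their calls without replicate 2 (0.0769 and 0.0865) or replicate 3 (0.0586 and 0.0775), and Slc25a31 also without replicate 4 (0.0654).

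By call, the NRF1-type letters were found in 6 of 12 promoter windows of genes with a probe called higher and in 10 of 48 of genes tested and not called. The ETS-type letters were found in 0 of 12 and 11 of 48. These counts were made after the calls were known and were not tested. The NRF1-type letters were shortened to this core after a longer form of the motif had been searched in the same windows.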
